A study of Mus musculus with 3 samples.

Results

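Proteasome gene expression was examined in mouse C3H10T1/2 cells with and without a retrovirus carrying Mkx. Members were all proteasome genes with symbols of core subunits (Psma, Psmb), regulatory particle subunits (Psmc, Psmd), activators (Psme), inhibitor Psmf1 or assembly chaperones (Psmg). The members were taken by a pattern on the symbol, but the pattern was chosen with earlier results of these data known. They comprised 47 of 18193 genes on the arrays, read by 100 of 45101 probe sets. Of these, 45 were measured, meaning that the highest of their 3 values reached 4.34, the median of all deposited log2 values. Psma8 and Psmb11, whose products belong to the proteasomes of testis and thymus, stayed below this floor on all 3 arrays.

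C3H10T1/2 is a mesenchymal cell line of mouse embryo origin. The 3 groups were the untransduced line, the same line given a retroviral vector for the fluorescent protein Venus (called Venus) and the line given a vector for Venus-Mkx (called Venus-Mkx), all grown in α-MEM with serum and antibiotics. Per the methods, the vector was pMIGR and the transduced cells were cultured with puromycin. RNA of each group was hybridized to 1 Affymetrix array, so no difference below has a replicate check, no p-value is given, and an effect of the vector cannot be told apart from a difference between cultures. The probe set of highest mean for Mkx itself read 6.88 in C3H10T1/2, 7.43 with Venus and 2.71 with Venus-Mkx, which goes against the label. Per the methods, the vector carried coding sequences, and whether this probe set lies within that of Mkx is not known here. The third array is therefore named as the array labelled Venus-Mkx.

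The proteasome is the protease that degrades ubiquitin-tagged proteins. Its barrel-shaped core has rings of α subunits, which control entry, around rings of β subunits, among them the catalytic ones, and a regulatory particle of ATPase and non-ATPase subunits binds, unfolds and feeds in substrates. Under interferon, cells replace the catalytic subunits Psmb5, Psmb6 and Psmb7 with Psmb8, Psmb9 and Psmb10 to form the immunoproteasome, and also make more of the activator subunits Psme1 and Psme2, which favours peptides for presentation by MHC class I molecules. These 5 genes are called interferon-responsive here, a name taken from this background, and the 31 subunits of the α, β, ATPase and non-ATPase classes are called constitutive.

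Only 4 of the 5 interferon-responsive genes could be assigned a value, because the single probe set for Psme2 is annotated to Psme2b as well. All 4 exceeded each control array by 2-fold or more on the array labelled Venus-Mkx. For Psmb8, the log2 value was 4.65 in C3H10T1/2, 5.27 with Venus and 10.26 with Venus-Mkx, 4.99 above Venus (31.8-fold) and 5.61 above C3H10T1/2 (48.8-fold). These folds rest on the brighter of its probe sets, and with the mean of both, the other being below the floor on every array, the differences were 3.24 and 3.64. Psmb9 read 5.23, 5.87 and 9.29 in the same order, 3.43 above Venus (10.7-fold) and 4.06 above C3H10T1/2 (16.7-fold). For both genes the control values lay close above the floor and the third value far above it.

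Psmb10 and Psme1 differed from them in their starting point, with control values well above the floor. Psmb10 read 7.50 in C3H10T1/2, 7.67 with Venus and 10.72 with Venus-Mkx, 3.04 above Venus (8.23-fold) and 3.22 above C3H10T1/2 (9.32-fold). Psme1, an activator subunit that opens the core without ATP, read 9.52, 9.89 and 12.09, 2.20 above Venus (4.58-fold) and 2.57 above C3H10T1/2 (5.93-fold). The probe set annotated to both Psme2 and Psme2b read 10.20, 10.46 and 12.10, and its signal cannot be assigned to either gene. It belongs to no count below. Values of different probe sets are not comparable as levels, so only differences between arrays are set beside each other.

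**Figure D1:**
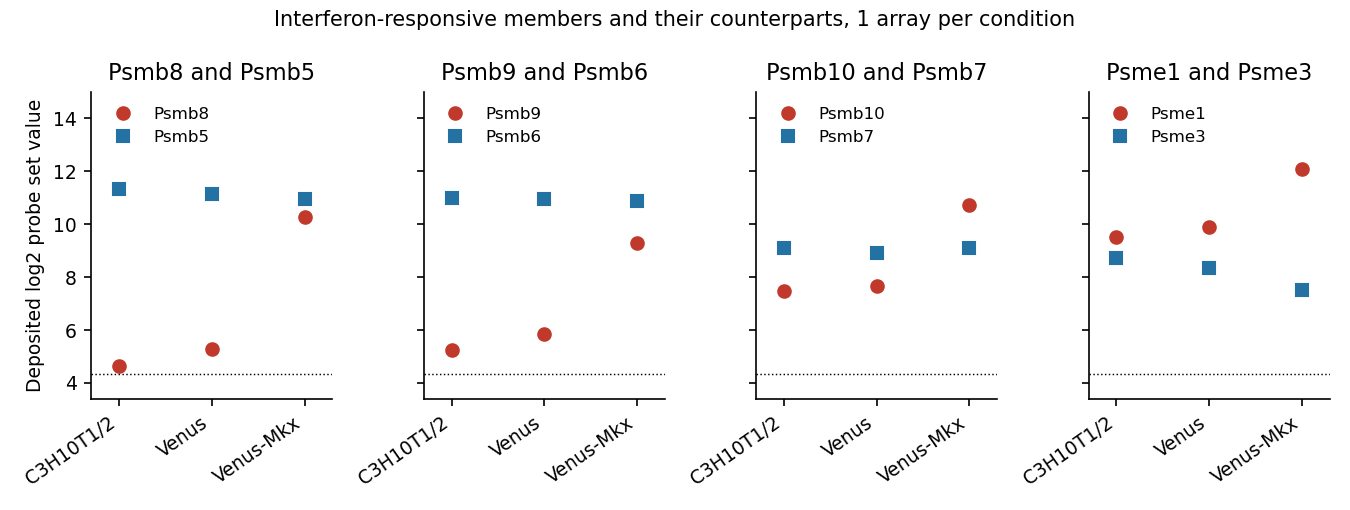
Deposited log2 probe set values (vertical axis) on the 3 arrays (horizontal axis, 1 array per condition) for 4 interferon-responsive members (red circles) and Psmb5, Psmb6, Psmb7 and Psme3 (blue squares); the dotted line is the floor of 4.34. The red points are highest in Venus-Mkx in every panel, with Psmb8 at 10.26, whereas Psmb5 moves only from 11.31 to 10.97 and Psme3 is lowest in Venus-Mkx at 7.51.

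Among 11169 measured genes, 762 (6.82%) exceeded each control by 2-fold or more on the array labelled Venus-Mkx, and among the 45 measured members 4 (8.89%) were. The members' share was thus near that of all genes, and it consisted entirely of the interferon-responsive class. The same 4 members also passed a 3-fold threshold, which 3.75% of all measured genes did. Ordered by the difference from Venus, Psmb8 ranked 35 of the 11169 genes, Psmb9 115, Psmb10 140 and Psme1 274. The median difference of these 4 genes was 3.23 from Venus and 3.64 from C3H10T1/2, against a median of 0.00 over all measured genes in both comparisons.

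The catalytic subunits that the interferon-responsive ones replace did not share this pattern. Psmb5, which carries the chymotrypsin-like site, read 11.31 in C3H10T1/2, 11.15 with Venus and 10.97 with Venus-Mkx, a difference of −0.18 from Venus. Psmb6, with the caspase-like site, read 11.01, 10.97 and 10.90, a difference of −0.072. Psmb7, with the trypsin-like site, read 9.09, 8.92 and 9.09, 0.17 above Venus and equal to C3H10T1/2 to the second decimal. None of these reached 1.5-fold. The difference from Venus was larger for Psmb8 than for Psmb5 by 5.17 on the log2 scale, larger for Psmb9 than for Psmb6 by 3.50 and larger for Psmb10 than for Psmb7 by 2.87.

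Promoter sequences are shown for the 4 interferon-responsive genes, which were higher together, and for Psmb5 and Psmb6 as counterparts. They were taken from RefSeq on build GRCm38.p6 and cover the 120 bases before the start of the gene and the first 20 bases from it. Psmb7 was not analysed here. Capitals mark matches, on either strand, to 3 short patterns: the core of the interferon-stimulated response element (GAAA, any 2 bases, GAAA), the core of the gamma-activated sequence (TTCNNNGAA) and the core of the antioxidant response element (TGACNNNGC).

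Psmb8, chr17:34198075-34198214, plus strand: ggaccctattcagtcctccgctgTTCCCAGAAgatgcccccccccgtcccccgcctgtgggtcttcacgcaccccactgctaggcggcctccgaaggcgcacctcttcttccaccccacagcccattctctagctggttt
Psmb9, chr17:34187311-34187450, minus strand: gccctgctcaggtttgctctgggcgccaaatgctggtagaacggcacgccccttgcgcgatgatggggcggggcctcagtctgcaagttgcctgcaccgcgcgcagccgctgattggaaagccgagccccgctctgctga
Psmb10, chr8:105938373-105938512, minus strand: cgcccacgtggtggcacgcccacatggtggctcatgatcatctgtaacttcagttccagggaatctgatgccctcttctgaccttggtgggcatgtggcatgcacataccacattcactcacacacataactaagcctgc
Psme1, chr14:55578374-55578513, plus strand: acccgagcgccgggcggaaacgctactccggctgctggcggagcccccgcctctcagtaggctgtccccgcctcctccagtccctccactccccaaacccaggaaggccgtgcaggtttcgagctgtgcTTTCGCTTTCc
Psmb5, chr14:54617976-54618115, minus strand: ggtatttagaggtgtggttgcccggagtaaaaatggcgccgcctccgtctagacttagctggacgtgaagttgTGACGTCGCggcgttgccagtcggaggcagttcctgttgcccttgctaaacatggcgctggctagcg
Psmb6, chr11:70525237-70525376, plus strand: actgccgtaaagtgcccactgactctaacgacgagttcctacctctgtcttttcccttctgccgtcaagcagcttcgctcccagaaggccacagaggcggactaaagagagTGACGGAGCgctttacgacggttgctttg

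The 4 interferon-responsive genes had few of these patterns. Psmb8 held a gamma-activated core from −97 to −89, Psme1 held an interferon-stimulated core from 10 to 19 on the reverse strand, counting the start as 1, and Psmb9 and Psmb10 held none of the 3 in the full window of 250 bases before to 50 bases after the start. Psmb5 and Psmb6 each held an antioxidant core, from −47 to −39 and from −9 to −1. Of the 40 members with a searched promoter window, 5 held the interferon-stimulated core (Psme1, Psmb3, Psmd4, Psmd9 and Psmg4), 3 the gamma-activated core (Psmb8, Psmd2 and Psmg1) and 6 the antioxidant core (Psmb5, Psmb6, Psmc6, Psmd12, Psmd9 and Psme4). Of the 32851 windows searched, which did not cover every chromosome, 3.44%, 8.30% and 12.4% held these patterns. Members were counted by gene and this background by window, so the shares are not in like units. No matches overlapped in the members' windows. A match is only a run of letters, and its absence says nothing of a factor's binding. In gene order, Psmb9, Tap1, Psmb8 and Tap2 follow each other on chromosome 17, and Psme1, Emc9 and Psme2 on chromosome 14.

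Constitutive subunit genes were close to both controls. None of the 31, all of which were measured, differed 2-fold in either direction, and of the 41 measured members outside the interferon-responsive class none did so against both controls, whereas 5.34% of all measured genes lay 2-fold or more below both on the array labelled Venus-Mkx. By a 1.5-fold threshold, 3 of the 45 members, Psmd10, Psmd7 and Psme3, lay below both controls, against 11.6% of all measured genes. The differences of constitutive subunits from Venus ran from −0.59 to 0.49 with a median of −0.072, and those from C3H10T1/2 from −0.75 to 0.33 with a median of −0.17. Most were slightly lower, with 22 of 31 below Venus, 6 above and 3 equal. Being below both controls was also more frequent here, in 22 of 31 genes, than the 40.0% over all measured genes or the 48.7% over the 3006 measured genes with a mean of at least 9, the range of most subunits. No test was made of these shares.

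**Figure D2:**
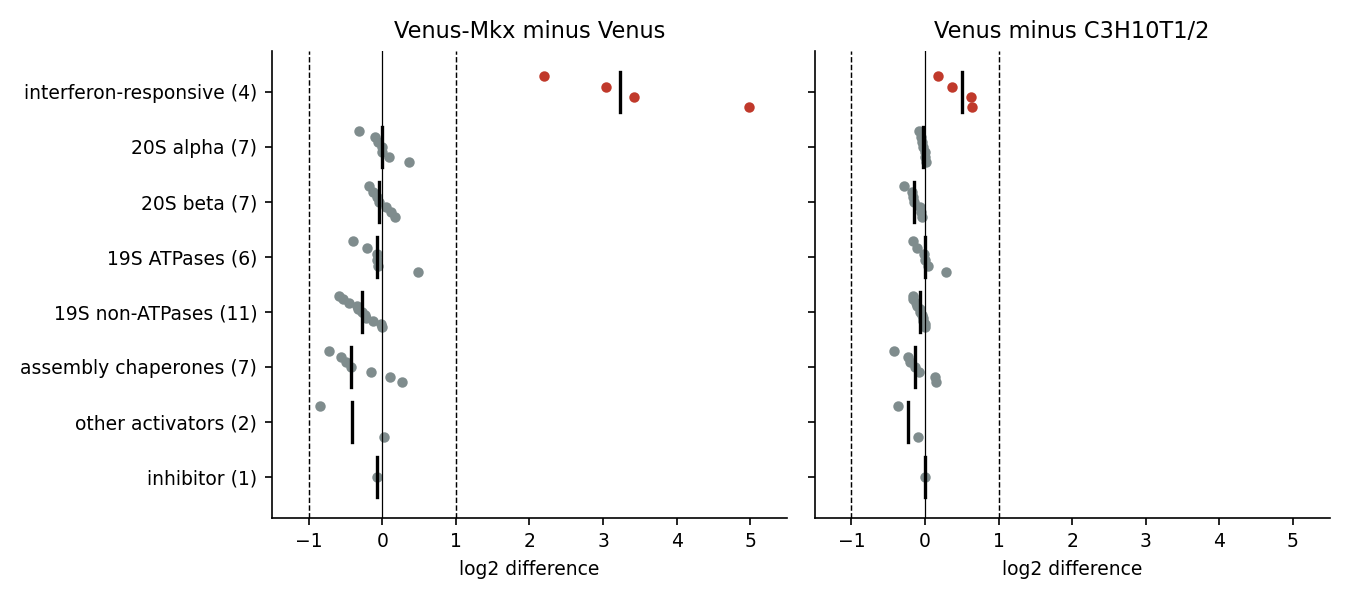
Log2 differences (horizontal axis) of the 45 measured members by class (vertical axis, number of genes in brackets) between Venus-Mkx and Venus (left) and between Venus and C3H10T1/2 (right), 1 array per condition. Points are genes, black bars class medians and dashed lines a 2-fold difference; the interferon-responsive median lies at 3.23 on the left and 0.50 on the right, and every other median lies between −0.42 and 0.00.

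The α-ring and β-ring genes differed little between arrays. Psma6 read 11.80 on all 3 arrays, and Psma5 read 11.26, 11.28 and 11.28. Psma7 was the highest of the class against Venus, with 10.87 in C3H10T1/2, 10.84 with Venus and 11.19 with Venus-Mkx, a difference of 0.36. Psma1 was the lowest, with 10.60, 10.57 and 10.26, a difference of −0.31. The median of the 7 genes was 0.00 from either control. In the β rings, differences from Venus ran from −0.18 for Psmb5 to 0.17 for Psmb7, and the non-catalytic members Psmb1, Psmb2, Psmb3 and Psmb4 lay between −0.13 and 0.12.

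The ATPase genes of the regulatory particle showed more spread in their differences from Venus. Among the 6 ATPase genes, which encode the motor ring, Psmc3 was the highest against Venus. It read 11.26 in C3H10T1/2, 11.10 with Venus and 11.59 with Venus-Mkx, 0.49 above Venus and 0.33 above C3H10T1/2. Psmc4 was the lowest against Venus, with 10.04, 10.33 and 9.93, but its difference of −0.40 from Venus was only −0.12 from C3H10T1/2. The other ATPase genes lay between −0.21 and −0.063 of Venus.

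Non-ATPase subunits were the constitutive class furthest below the controls. Of 11 genes, 10 were below both controls and Psmd3 had an equal value of 9.19 on all 3 arrays. Their median difference was −0.27 from Venus and −0.33 from C3H10T1/2. Psmd7 was the lowest of them against either control, with 9.89 in C3H10T1/2, 9.73 with Venus and 9.14 with Venus-Mkx. Its difference was −0.59 from Venus (1.51-fold lower) and −0.75 from C3H10T1/2 (1.68-fold lower). It encodes the partner of Psmd14, the deubiquitinase that removes ubiquitin chains from substrates, and Psmd14 read 11.82, 11.66 and 11.20, a difference of −0.46. Psmd8, another subunit of the lid, read 10.51, 10.48 and 9.95, a difference of −0.53. A second probe set of Psmd7 read an equal value of 6.28 on all 3 arrays, so the lower value rests on 1 probe set. The scaffold subunits Psmd1 and Psmd2 differed by −0.35 and −0.27, and the ubiquitin receptor Psmd4 by −0.12.

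**Figure D3:**
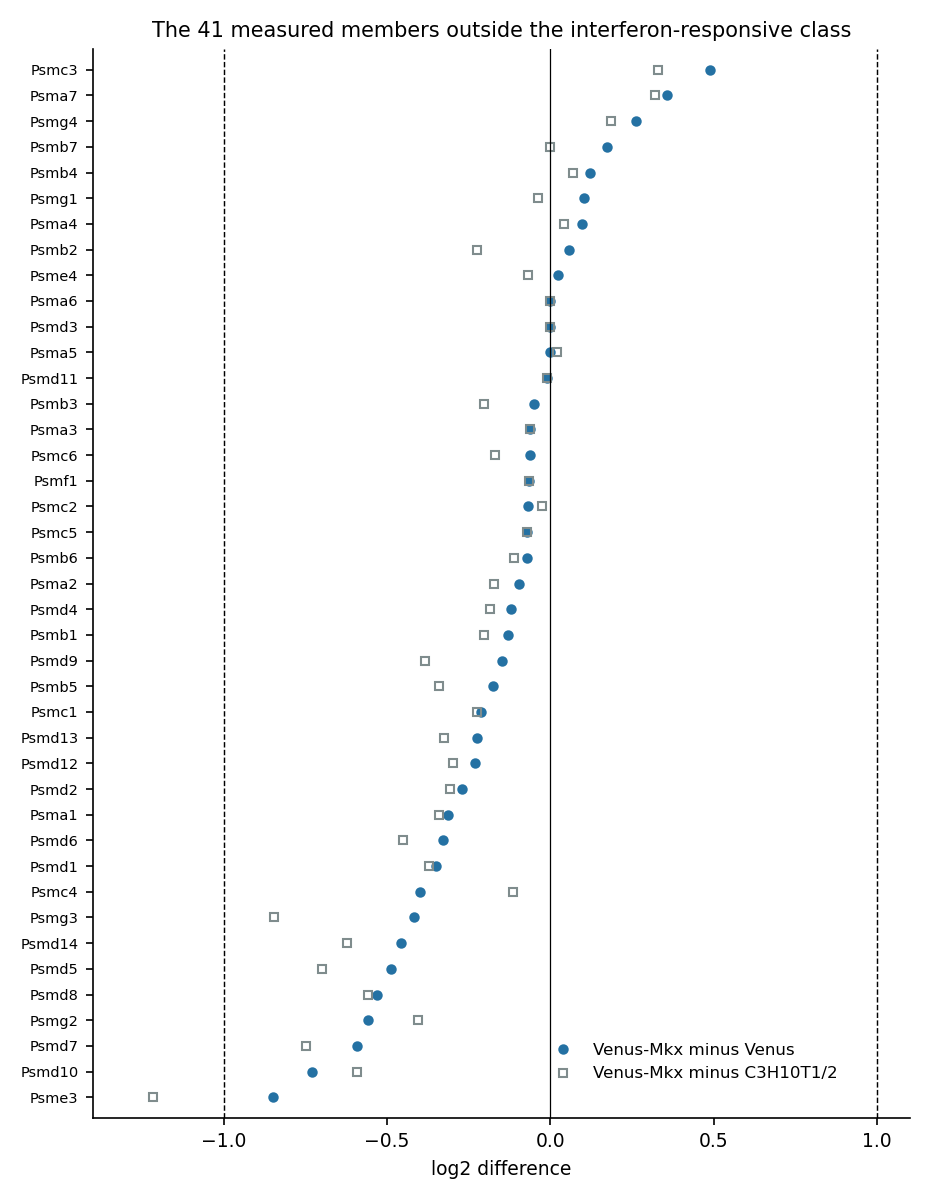
Log2 difference (horizontal axis) between the array labelled Venus-Mkx and Venus (filled circles) or C3H10T1/2 (open squares) for the 41 measured members outside the interferon-responsive class, ordered by the difference from Venus; dashed lines mark a 2-fold difference. Values run from −0.85 for Psme3 to 0.49 for Psmc3 against Venus, and only Psme3 against C3H10T1/2, at −1.22, lies beyond a dashed line.

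Assembly chaperones, which guide subunits into the complex and then leave it, were mostly below the controls, with a median difference of −0.42 from Venus and −0.40 from C3H10T1/2 over 7 genes. Psmd10, also known as gankyrin, was the lowest against Venus, with 8.87 in C3H10T1/2, 9.0 with Venus and 8.28 with Venus-Mkx, a difference of −0.73. Psmd5 read 9.44, 9.23 and 8.74, a difference of −0.49. Of the α-ring chaperones, Psmg2 differed by −0.56 from Venus and Psmg3 by −0.42, whereas Psmg1 and Psmg4 were above Venus, by 0.10 and 0.26. Psmg3 was already lower in Venus than in C3H10T1/2, with 8.83, 8.41 and 7.99 on the 3 arrays.

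The remaining activators and the inhibitor did not follow Psme1. Psme3, the activator subunit of the nucleus, is related in sequence to Psme1 but had the lowest difference of all measured members from either control. It read 8.73 in C3H10T1/2, 8.36 with Venus and 7.51 with Venus-Mkx. Its difference was −0.85 from Venus (1.80-fold lower) and −1.22 from C3H10T1/2 (2.33-fold lower), past 2-fold against the untransduced line only, which made it 1 of 45 members against 6.8% of all measured genes. Its second probe set above the floor read 5.75, 5.75 and 5.16, a smaller difference of −0.58 from either. Psme4, a large activator unrelated to these, read 10.03, 9.94 and 9.96. Psmf1, which binds the core and inhibits it in vitro, read 7.52, 7.52 and 7.45. The difference from Venus was larger for Psme1 than for Psme3 by 3.05 on the log2 scale.

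Between the control arrays, no member differed 2-fold. By the same threshold, 1.49% of all measured genes were higher in Venus and 0.555% were lower. The interferon-responsive genes were all somewhat higher in Venus, with differences of 0.64 for Psmb9, 0.62 for Psmb8, 0.37 for Psme1 and 0.18 for Psmb10, that is from 1.13-fold to 1.55-fold. Psmb8 and Psmb9 thus passed a 1.5-fold threshold, 2 of the 45 members, against 4.42% of all measured genes. Differences at least as high as those of Psmb9 and Psmb8 occurred in 3.73% and 3.98% of all measured genes, and as high as that of Psmb10 in 19.3%. The probe set of Psme2 and Psme2b differed by 0.26. The 31 constitutive subunits had a median of −0.053 and a range from −0.28 to 0.28, with 23 lower, 3 higher and 5 equal in Venus. Both this comparison and that of Venus-Mkx with Venus use the Venus array, so they are not independent of each other.

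**Figure D4:**
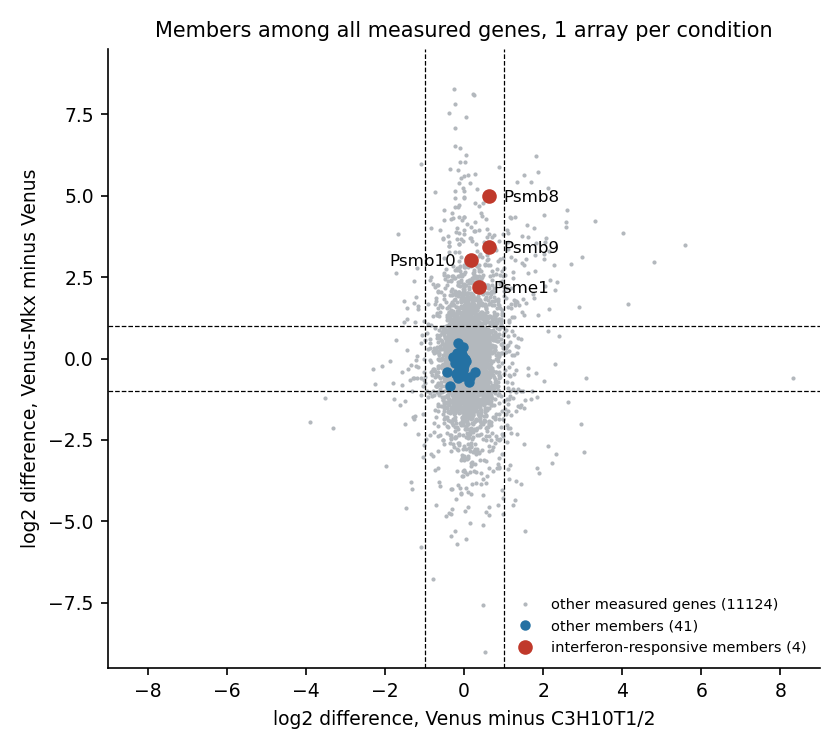
Log2 difference between Venus and C3H10T1/2 (horizontal axis) and between Venus-Mkx and Venus (vertical axis) for 11169 measured genes, 1 array per condition; the axes share the Venus array and dashed lines mark 2-fold. The 4 interferon-responsive members (red) lie from 2.20 to 4.99 on the vertical axis and within 0.64 on the horizontal one, and the other 41 members (blue) lie in the centre, from −0.85 to 0.49.

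Other genes of the pathway were taken from lists of 32 genes, of which 22 were analysed. The regulators and locus neighbours of the interferon-responsive genes were higher, with 5 of 5 analysed genes above both controls by 2-fold or more as read. Irf1, a transcription factor that drives Psmb9 and Tap1, read 7.93 in C3H10T1/2, 7.89 with Venus and 10.01 with Venus-Mkx, a difference of 2.12 from Venus. Irf9, the DNA-binding part of the complex that acts on interferon-stimulated elements, read 6.24, 7.74 and 9.57, 1.84 above Venus and 3.34 above C3H10T1/2, so that Venus was itself well above the untransduced line. Tap1 and Tap2, which encode the peptide transporter of the antigen presentation pathway, differed from Venus by 2.51 and 3.02. Nlrc5, a coactivator of MHC class I genes, was below the floor in both controls and read 5.48 in Venus-Mkx, so it was at least 2.20-fold above the floor.

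Genes that act with all proteasomes were nearer to the controls than the regulators and locus neighbours above. Of 7 proteasome partners analysed, none differed 2-fold, and their differences from Venus ran from −0.71 for Usp14, a deubiquitinase bound to the regulatory particle, to 0.10 for Akirin2, which acts in the nuclear import of proteasomes. Sem1, a small lid subunit, differed by −0.48 and Pomp, the maturation protein that helps form both kinds of core, by 0.036. Of 7 shuttle factors and segregase genes, none was 2-fold from both controls. Over all measured genes, 6.82% were 2-fold or more above both controls and 5.34% below. A count of none among 7 genes is near these shares. Ubqln2, a shuttle factor, was the nearest, with 10.74, 10.89 and 11.81 on the 3 arrays and differences of 0.92 and 1.07. Vcp, the segregase that extracts ubiquitinated proteins, differed by −0.039 from Venus. Nfe2l1, the transcription factor that raises subunit genes when proteasome activity is low, read 9.43, 9.40 and 9.40, Nfe2l2 differed by −0.39 from Venus, and Ngly1, which activates Nfe2l1, by 0.54.

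Marker genes were read because blood cells use Psmb8, Psmb9 and Psmb10 without added interferon. Of 10 mesenchymal markers, 9 reached the floor on every array, among them Vim, Col1a2, Fn1 and Prrx1, and Lum stayed below it. Of 11 blood cell markers analysed, 3 reached the floor on every array. The summed log2 value of all 11 was 37.7, 39.4 and 42.1 in C3H10T1/2, Venus and Venus-Mkx. The mesenchymal sum also rose in this order, with 102.2, 104.0 and 105.4. The endothelial sum was 11.5, 11.3 and 11.4, and the epithelial sum 16.7, 17.5 and 17.0. Of the blood cell markers, Ptprc, Cd68, Adgre1, Itgam, Itgax, Cd3e, Cd79a and Coro1a were below the floor on all 3 arrays. Of the 3 above it, Lyz2 read 4.39, 5.14 and 7.30 and Csf1r 4.45, 5.39 and 6.62, highest on the array where Psmb8, Psmb9 and Psmb10 were highest, whereas Laptm5 read 4.99, 4.52 and 4.70, highest in C3H10T1/2. Their part in the values of these genes was not tested. No endothelial marker reached the floor, and of 4 epithelial markers Epcam did on every array. In bulk RNA, more cells of one kind and more RNA per cell cannot be told apart.

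Probe sets of one gene on the same arrays did not always give the same difference, a disagreement that does not measure the spread between cultures. Of the 45 measured members, 21 had several probe sets that reached the floor. The gap between the highest and lowest of their differences from Venus had a median of 0.18 on the log2 scale and was above 0.50 for 3 genes, Psma3, Psmc6 and Psmd7, with 0.65 for Psma3 as the largest. For Psmd7 the gap is its own difference, since its second probe set did not differ. The 4 interferon-responsive genes were each read by 1 probe set above the floor. The second probe set of Psmb8 was below the floor on all 3 arrays.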

How the data were processed

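C3H10T1/2, Venus and Venus-Mkx cells were each profiled on 1 Affymetrix mouse array. Arrays were summarized with MAS 5.0 per the methods but with RMA per the submitters' processing notes, which give no version of it. Values were deposited by the authors on the log2 scale, from 1.44 to 14.00, and used as deposited. If arrays were normalized to each other, a shift shared by most genes would not be seen. Depth does not apply to arrays; the number of arrays limits the precision.

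Control probe sets (64) were left out. Of the rest, 34945 were paired with 1 gene symbol by GEO's platform annotation, updated through RefSeq gene IDs (GRCm38.p6, used for names, gene order and promoter windows), 932 with several and 9160 with none. A gene was read by its probe set of highest mean. A call was a 2-fold difference as read, for Venus-Mkx against both controls; no test was possible. The script making the calls was tested on simulated data. Named were the interferon-responsive members with their counterparts, Psme3, Psme4 and Psmf1, every called member and the extremes of each class. Psme2b, other members and second probe sets were added after their values were seen, as was the class of genes with a mean of at least 9. Members and lists were chosen with earlier results of these data known. Ubiquitin genes were not analysed here. Alternatives covered the probe set per gene, the floor, the scale, the control and the fold. Python 3.11.15, NumPy 2.4.6, pandas 2.3.3 and matplotlib 3.10.9 were used.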

Additional observations from a re-analysis of the deposited data

How the results depend on the processing

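The 4 interferon-responsive members exceeded both controls by the threshold under every alternative run, a 3-fold threshold included. Psmb8, Psmb9, Psmb10 and Psme1 were the members counted each time, joined only by the probe set of Psme2 and Psme2b when it was added as a further value, a setting chosen after seeing the data. Their median difference, 3.23 from Venus, was 3.64 against C3H10T1/2. With a 1.5-fold threshold, 3 of the 45 members (Psmd10, Psmd7 and Psme3) were lower than both controls, against 11.6% of all measured genes. By the same threshold, 2 (Psmb8 and Psmb9) were higher in Venus than in C3H10T1/2, against 4.42%. Against C3H10T1/2 alone, 1 member, Psme3, was at least 2-fold lower, as were 6.8% of all measured genes. Of 378 recomputed values of 18 named members, 371 moved by less than 0.244, the SD per array taken from the difference between the control arrays, no difference of 2-fold or more turned its sign, and 4 smaller ones did: Psma1 between the controls (−0.028, and 0.14 with averaged probe sets) and Psme4 against Venus (0.024, and from −0.029 to −0.015 under 3 alternatives). The other 7 moved when a gene's probe sets were averaged, those below the floor included: Psmb8 lay 3.24 above Venus and 3.64 above C3H10T1/2, differences were −0.17 and −0.28 for Psmd7 and −0.48 and −0.60 for Psme3, which differed by −0.12 between the controls. Values near the floor of 4.34, as those of Psmb8 in the controls, limit how exactly a fold can be read. No paired analysis was possible because each condition has 1 array.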

Other observations

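Many probe sets held the same deposited value on all 3 arrays, 24.6% of all probe sets and 15 of the 100 probe sets of proteasome members. Among members, 8 of the 79 probe sets that reached the floor did so, including those used for Psma6 and Psmd3. The 8 probe sets of Psmd11 show this side by side: among those above the floor, one read 4.65 and another 8.30 on every array, whereas the one used read 10.95, 10.95 and 10.94 and a further one 9.62, 9.62 and 9.69. How equal values arose is not stated, so a difference of 0.00 in these data has no error attached to it.

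Outside the interferon-responsive class, 75 probe sets of proteasome members reached the floor, and none of them differed at least 2-fold between Venus-Mkx and Venus. The matching share over all probe sets was not computed, so this count has no like background. By gene and against both controls, 6.82% of all measured genes were 2-fold or more higher in Venus-Mkx and 5.34% lower. Of the 41 measured members in this group, 36 (87.8%) lay within 0.50 of Venus on the log2 scale, against 67.5% of all measured genes, and 34 (82.9%) lay within 0.50 of C3H10T1/2, against 65.3%. Between Venus and C3H10T1/2, 41 of 41 lay within 0.50, against 91.9%. No test was made of these shares. Most subunits had a mean of at least 9, a range in which genes varied less. The difference from Venus had an SD of 0.676 over the 3006 genes of that range, against 0.940 over all measured genes. The share within 0.50 was not computed for those 3006 genes, so the background is not matched for level.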
